A study of Saccharomyces cerevisiae with 18 samples.

Results

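The bud site selection genes described here are 10 genes listed by name, out of 7126 gene identifiers in the tables. They are the axial genes *AXL2*, *BUD3* and *BUD4*, the bipolar genes *BUD8*, *BUD9*, *RAX1* and *RAX2*, and the genes of the GTPase module, *RSR1*, *BUD2* and *BUD5*. Their transcript levels were followed over a dose series of *α*-pheromone by strand-specific RNA sequencing of rRNA-depleted RNA. All 18 libraries came from strain yAA95, a *MAT***a** haploid derived from SEY6210a, which itself carries mutations in *HIS3*, *LEU2*, *LYS2*, *SUC2*, *TRP1* and *URA3* and has lost the function of *KSS1*. In yAA95 the pheromone protease gene is deleted (*bar1delta::kanMX6*), as are both *α*-pheromone genes (*mfalpha1delta::SpHIS3*, *mfalpha2delta::hphNT1*) and *ARG4* (*arg4delta::klTRP1*), and a pheromone-driven reporter, pAA35 with PFUS1-Ubi(I)-sfGFP-TFUS1 and *URA3*, sits at *ura3*. Exponentially growing cells at 30 °C were exposed for 60 min to synthetic *α*-pheromone or left without it (0 nM, mock), in 2 experiments of 9 libraries. Experiment 1 held 0, 1, 5, 10, 15, 20, 50, 100 and 500 nM, and experiment 2 held 0, 0.05, 0.25, 1, 5, 10, 20, 50 and 500 nM. Within an experiment the flasks were filled from a shared culture, so the p-values below rest on 2 cultures.

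A budding yeast cell does not place its bud at random. Haploid cells bud beside the previous division site (the axial pattern), which is marked by landmark proteins at the bud neck, whereas diploid cells bud from either pole (the bipolar pattern) with another set of landmarks at the cell ends. Both sets of landmarks act through the small GTPase Rsr1, which passes the position on to the Cdc42 polarity machinery, and during mating the cell instead polarises towards the source of pheromone.

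Levels are given as RPKM, the read count scaled to transcript length and to the mapped reads of the library, which allows comparison between genes of different length. Read numbers were recovered from RPKM and gene length. By this estimate the libraries held 4870000 to 16660000 mapped reads, the fewest at 500 nM in experiment 1, and no member had fewer than 43 reads in any library. The *MAT***a** label was checked against the receptor gene *STE2* and the **a**-pheromone genes *MFA1* and *MFA2*, whose summed level was 1401 to 4320 RPKM, whereas the *α*-cell receptor gene *STE3* stood at 1.17 to 4.202 RPKM and the deleted *BAR1* at 0 to 0.288 RPKM. Since each level is a share of its library, a change describes that share and not the number of molecules per cell. In bulk RNA, fewer cells in a phase or state and less RNA per cell cannot be told apart.

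In the 4 libraries at 0 to 0.25 nM, the mean levels ran from 63.8 ± 1.09 RPKM (SD, n = 4) for *RSR1* through *RAX2*, *BUD4*, *BUD3*, *RAX1*, *AXL2*, *BUD8*, *BUD2* and *BUD9* to 4.92 ± 0.847 RPKM (n = 4) for *BUD5*. Neighbours in this order overlapped in their ranges, except *BUD3* and *RAX1*, and *BUD9* and *BUD5*. In the 7 libraries at 20 to 500 nM *RSR1* was still first and *BUD5* last, while *BUD4* stood in place 9 instead of 3 and *RAX1* in place 2 instead of 5. 

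**Figure D1:**
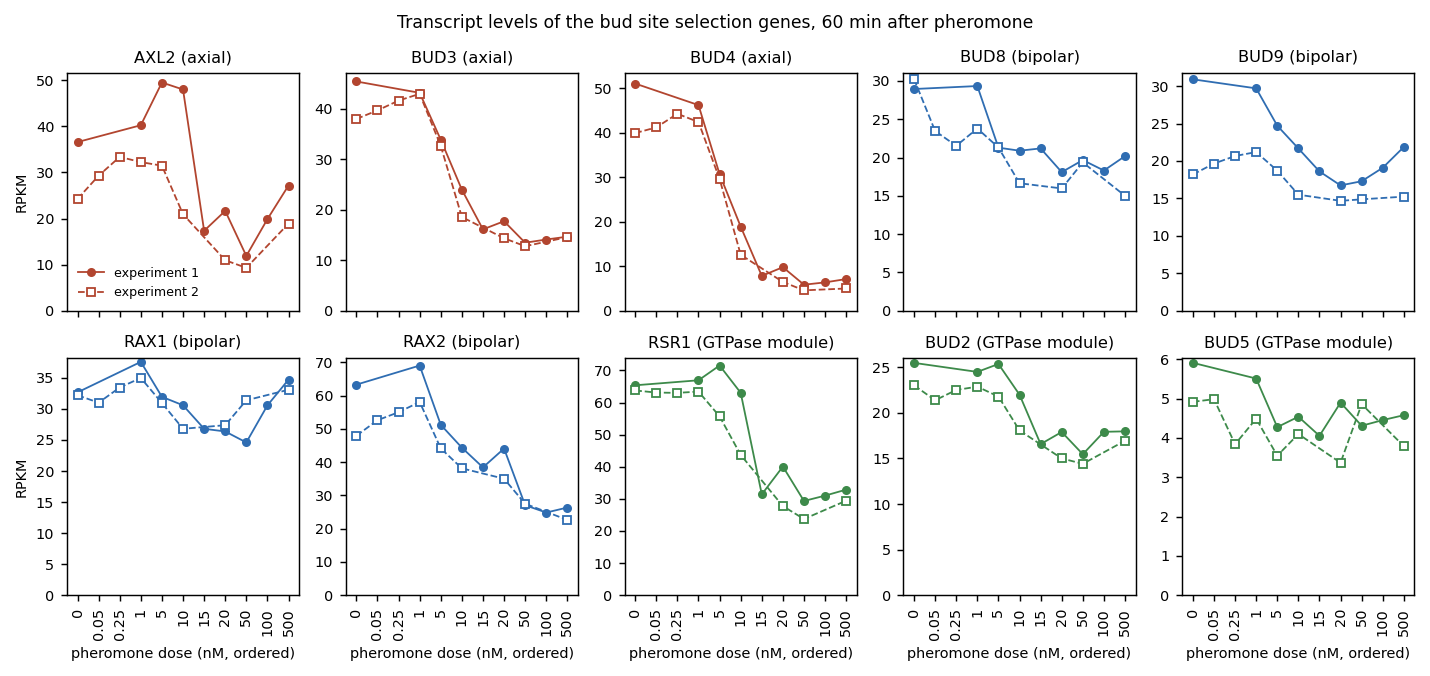
Transcript levels of the 10 bud site selection genes in each of the 18 libraries. Each panel shows RPKM (vertical axis, starting at 0) against the ordered dose of *α*-pheromone in nM (doses are evenly spaced and not to scale), with filled circles and solid lines for experiment 1 and open squares and dashed lines for experiment 2. *BUD4* falls from 51.0 and 39.9 RPKM without pheromone to 7.09 and 4.97 RPKM at 500 nM, *AXL2* is lowest at 50 nM and higher again at 500 nM, and *RAX1* stays between 24.6 and 37.6 RPKM.

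Short stretches of the promoters are shown to give the sequence context of the members that fell, and whether a motif goes with the shape of a dose curve was not tested. The 500 bases before each start codon in the R64 genome (sacCer3) were searched on both strands for 4 motifs. The forkhead motif GTAAACA, bound by Fkh1 and Fkh2 at the genes expressed in G2 and M phase, was found in the windows of *BUD3* and *BUD4* and in 10.3% of all 6000 windows of this length. The motif is in capitals, and each stretch is written 5′ to 3′ on the strand of its gene (plus for both), 155 bases before the start codon of *BUD3* (chrIII:96110-96134) and 174 bases before that of *BUD4* (chrX:598545-598569).
BUD3: aaaacaatgGTAAACAaaggctttg
BUD4: tggaaaaagGTAAACAacaatgaaa

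The motifs of the G1/S factors MBF (ACGCGT) and SBF (CACGAAA or CGCGAAA) were present in 5.42% and 12.5% of all windows, and share the letters CGCG where the second form of SBF is used. *AXL2* held both, with the SBF form at chrIX:84974-84998 (plus strand) and the MBF form at chrIX:84992-85015 (plus strand). *RSR1* (chrVII:795734-795758, minus strand) and *RAX2* (chrXII:300455-300479, minus strand, with the motif read on the other strand of the gene) held the SBF form, and *BUD2* (chrXI:269600-269623, minus strand) the MBF form. These stretches are shown with the motif in capitals.
AXL2 (SBF): attcaaagaCGCGAAAaaaaaagaa
AXL2 (MBF): aaaagaacaACGCGTcatagaact
RSR1: attctcaaaCGCGAAAtatcgtcga
RAX2: ttcccatttTTTCGCGatacaaaaa
BUD2: cattcttgaACGCGTtctgttcga

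The pheromone response element of Ste12, searched as TGAAACA and present in 12.02% of windows, was found in 0 of the 10 windows, which says only that these letters are not in those 500 bases. *BUD8* and *BUD9*, which also fell, held none of the 4 motifs in their windows, nor did *RAX1* and *BUD5*. A match is a description of the letters, and binding was not measured.

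Transcripts of most bud site selection genes fell at high pheromone. Between the 4 libraries at 0 to 0.25 nM and the 7 at 20 to 500 nM, 8 of the 10 members were lower at an adjusted p under 0.05 (limma on log2-transformed RPKM + 1, blocked by experiment, Benjamini-Hochberg over all 6002 genes tested), against 25.9% of all genes tested. None rose, against 9.10% of all genes tested, also at an unadjusted p under 0.05 (0 members) and with limma-voom on the recovered reads, and a count of 0 of 10 is near that background. The fall was at least 2-fold for *AXL2*, *BUD3*, *BUD4* and *RSR1*, 4 of 10 members against 4.40% of all genes. The median log2 fold change was -0.75 over the members and -0.10 over all genes tested. In 6 of 10 members (*BUD2*, *BUD3*, *BUD4*, *BUD8*, *RAX2* and *RSR1*) every high-dose library lay below every low-dose library, and 16.4% of all genes tested did the same. In experiment 1 alone, with a single low-dose library, 2 members (*BUD3* and *BUD4*) passed the test, and leaving out any single library of the 11 changed none of the 8 calls. The 2-fold fall of *AXL2* rested on single libraries, as it was -0.92 without the 50 nM library of experiment 2, and the count past 2-fold was then 3, as it was without the 50 nM library of experiment 1 or the 0.25 nM library.

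**Figure D2:**
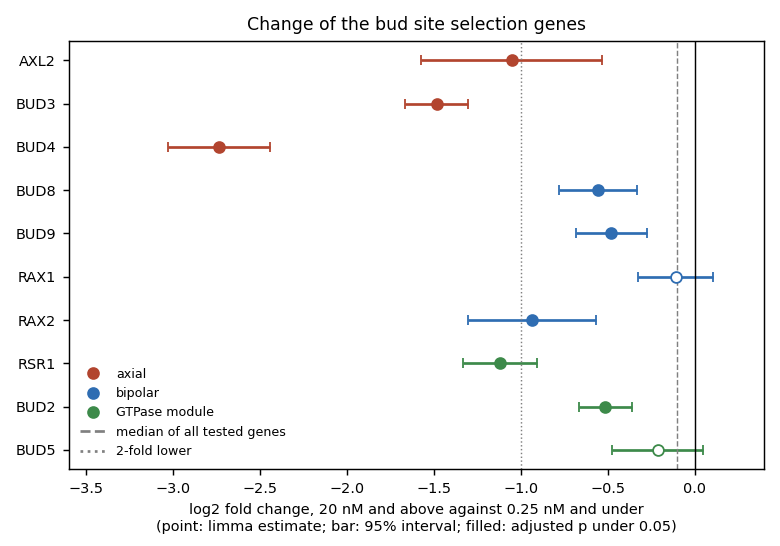
Change of each bud site selection gene between 20 nM and above (7 libraries) and 0.25 nM and under (4 libraries). The horizontal axis is the log2 fold change from limma, points are estimates, bars are 95% intervals, and filled points have an adjusted p under 0.05; the dashed line is the median of all 6002 genes (-0.10) and the dotted line a 2-fold fall. *BUD4* lies farthest to the left at -2.74, and the intervals of *RAX1* and *BUD5* include 0.

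Among the axial landmark genes, *BUD4* and *BUD3* had the largest falls of the 10 members. *BUD4* encodes an anillin-like protein that sits at the septin ring of the bud neck and recruits other landmarks. Its coding sequence lies at chrX:598735-603078 on the plus strand, without an intron. It stood at 51.0 RPKM in the mock library of experiment 1 and at 39.9, 41.2 and 44.3 RPKM at 0, 0.05 and 0.25 nM in experiment 2. At 20 nM and above it was between 4.55 and 9.76 RPKM with a median of 6.34 RPKM. The groups were far apart, and the fall was 6.67-fold on the scale of RPKM + 1 (log2 fold change -2.74, SE 0.13, 95% interval -3.03 to -2.45, adjusted p = 1.6e-07 with limma), among the lowest 0.283% of the genes tested.

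*BUD3* encodes the partner of Bud4 at the neck, with an exchange factor domain for Cdc42. It is located at chrIII:96281-101191 on the plus strand. Its levels were 45.4 RPKM in the mock library of experiment 1 and 38.0, 39.7 and 41.6 RPKM at 0, 0.05 and 0.25 nM in experiment 2, against 12.8 to 17.7 RPKM (median 14.3) at 20 nM and above. All high-dose libraries were lower, by 2.80-fold (log2 fold change -1.49, SE 0.08, adjusted p = 3.6e-07 with limma). *BUD3* and *BUD4* are the members with the forkhead letters printed above.

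*AXL2* encodes the transmembrane landmark of the axial pattern, known to be made late in G1. It lies at chrIX:85366-87837 on the plus strand. It measured 36.6 RPKM in the mock library of experiment 1 and 24.3, 29.3 and 33.4 RPKM at 0, 0.05 and 0.25 nM in experiment 2, and from 9.29 to 27.2 RPKM (median 18.9) at 20 nM and above. The groups overlapped, since the 500 nM library of experiment 1 was above the mock library of experiment 2. The fall was 2.08-fold (log2 fold change -1.05, SE 0.24, adjusted p = 0.00608 with limma). Against the 2 mock libraries alone it was -0.90 with an adjusted p of 0.0714 (limma), so the call depends on the low doses of experiment 2.

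In the GTPase module the gene of the GTPase itself fell most. *RSR1*, also known as *BUD1*, encodes the Ras-like GTPase that reads the landmarks, and it lies at chrVII:794674-795492 on the minus strand. It was even among the low-dose libraries, at 65.4 RPKM in the mock of experiment 1 and 63.8, 63.1 and 63.0 RPKM at 0, 0.05 and 0.25 nM in experiment 2. The high-dose libraries ranged from 23.7 to 40.1 RPKM with a median of 29.4 RPKM, all lower, and the fall was 2.18-fold (log2 fold change -1.12, SE 0.10, adjusted p = 1.0e-05 with limma).

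*BUD2*, the gene of the GTPase-activating protein that switches Rsr1 off, lies at chrXI:266145-269459 on the minus strand. Its levels were 25.5 RPKM in the mock library of experiment 1 and 23.0, 21.4 and 22.5 RPKM at 0, 0.05 and 0.25 nM in experiment 2, against 14.4 to 17.97 RPKM (median 16.9). Each high-dose library was below the low-dose ones, and the difference was smaller than for *RSR1*, at 1.43-fold (log2 fold change -0.52, SE 0.07, adjusted p = 2.5e-04 with limma).

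*BUD5*, the gene of the exchange factor that switches Rsr1 on, lies next to the mating type locus at chrIII:197621-199549 on the minus strand and was the lowest of the members. It stood at 5.91 RPKM in the mock library of experiment 1 and 4.92, 4.99 and 3.84 RPKM at 0, 0.05 and 0.25 nM in experiment 2, and at 3.37 to 4.90 RPKM (median 4.46) at high doses. The groups overlapped, and the change did not pass the test (log2 fold change -0.21, SE 0.12, 95% interval -0.48 to 0.05, adjusted p = 0.174 with limma). The interval leaves out a 2-fold fall. In the reference, whose mating type locus is of the *α* type, *BUD5* overlaps the neighbouring *MATALPHA2* by 4 bases, and how reads there were assigned was not tested.

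Of the bipolar genes, *RAX2* fell most. Rax1 and Rax2 are membrane proteins that bind each other and mark the cell poles over many divisions. *RAX2*, at chrXII:296589-300251 on the minus strand, was at 63.3 RPKM in the mock library of experiment 1 and at 47.9, 52.6 and 55.0 RPKM at 0, 0.05 and 0.25 nM in experiment 2. At high doses it lay between 22.6 and 44.1 RPKM with a median of 27.1 RPKM, below all low-dose libraries. The fall was 1.91-fold (log2 fold change -0.94, SE 0.17, adjusted p = 0.00157 with limma).

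*RAX1*, at chrXV:880965-882272 on the plus strand, was at 32.7 RPKM in the mock library of experiment 1 and at 32.2, 31.0 and 33.5 RPKM at 0, 0.05 and 0.25 nM in experiment 2. The high-dose libraries spread around these, from 24.6 to 34.7 RPKM with a median of 30.6 RPKM. The groups overlapped and no change passed the test (log2 fold change -0.11, SE 0.10, 95% interval -0.33 to 0.11, adjusted p = 0.389 with limma).

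*BUD8* and *BUD9* encode related landmarks of opposite poles, Bud8 at the end away from the birth site and Bud9 at the end beside it. *BUD8* (chrXII:834352-836163, plus strand) was at 29.0 RPKM in the mock library of experiment 1 and at 30.3, 23.5 and 21.5 RPKM at 0, 0.05 and 0.25 nM in experiment 2, against 15.0 to 20.2 RPKM (median 18.3). All high-dose libraries were lower, the 20.2 RPKM at 500 nM in experiment 1 only just, and the fall was 1.47-fold (log2 fold change -0.56, SE 0.10, adjusted p = 0.00185 with limma).

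*BUD9* (chrVII:577487-579130, plus strand) stood at 30.9 RPKM in the mock library of experiment 1 and at 18.2, 19.7 and 20.7 RPKM at 0, 0.05 and 0.25 nM in experiment 2, and at 14.7 to 21.9 RPKM (median 16.7) at high doses. The experiments differed in level and the pooled groups overlapped, while within each experiment every high-dose library was below the low-dose ones. The fall was 1.40-fold (log2 fold change -0.48, SE 0.09, adjusted p = 0.00263 with limma), and without the block for the experiment it was -0.35 with an adjusted p of 0.0798.

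The doses at which the members first fell were compared in a fit of all 18 libraries, with 2 libraries for each dose. Every comparison with 0 nM in it shares the mock libraries. At 1 nM, 0 members were lower (limma, adjusted or unadjusted p under 0.05), where 0.0834% of all 5995 genes were lower. At 5 nM *BUD4* alone was lower, 1 of 10 against 1.67% of all genes, at 30.7 and 29.6 RPKM in the 2 experiments (log2 fold change -0.57, adjusted p = 0.0461 with limma). This call was lost without the mock library of either experiment or the 5 nM library of experiment 1 (adjusted p of 0.123 to 0.402). At 10 nM 5 members were lower, against 11.6% of all genes. They were *BUD4* (-1.49), *BUD3* (-0.94), *BUD8* (-0.64), *RAX2* (-0.41) and *BUD2* (-0.27). The call of *BUD2* was lost with centring on the median (-0.19, adjusted p = 0.108 with limma) and with quantile normalization (-0.17, adjusted p = 0.170 with limma). Leaving out single mock or 10 nM libraries lowered the count to as few as 2, with *BUD3* and *BUD4* left when the 10 nM library of experiment 2 was out. *BUD9* passed the test at 10 nM only without the mock library of experiment 2 (-0.54, adjusted p = 0.0343 with limma).

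At 20 nM 8 members were lower, against 18.4% of all genes, and at 50 nM 8 members were lower against 33.1%. These were all members but *RAX1* and *BUD5*. Without the 20 nM library of experiment 2, *AXL2* missed the threshold at 20 nM (-0.74, adjusted p = 0.0604 with limma). For *BUD9* the fall against the mock libraries was -0.57 at 20 nM and -0.54 at 50 nM, and leaving out the library of experiment 1 at that dose, or at 20 nM the mock library of experiment 1, took the adjusted p to between 0.0510 and 0.0608 (limma). *RAX1* at 50 nM stood at 24.6 RPKM in experiment 1 and 31.4 RPKM in experiment 2, and was lower only when the latter library was left out (-0.42, adjusted p = 0.00787 with limma). At 500 nM 7 members were lower, against 36.9% of all genes, with *AXL2* no longer past the threshold (-0.38, adjusted p = 0.1004 with limma). *BUD9* at 500 nM (-0.36, adjusted p = 0.0279 with limma) lost its call without the mock library of experiment 1 or either 500 nM library (adjusted p of 0.0630 to 0.258), with centring on the median (-0.30, adjusted p = 0.0765) and with quantile normalization (-0.23, adjusted p = 0.182, all with limma). With quantile normalization it was also lost at 50 nM (-0.31, adjusted p = 0.105).

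Members with the largest falls differed in the range of doses over which they fell. *BUD4* measured 46.2, 30.7, 18.9 and 7.81 RPKM at 1, 5, 10 and 15 nM in experiment 1, and 42.4, 29.6, 12.6 and 6.44 RPKM at 1, 5, 10 and 20 nM in experiment 2, so it was lower at each step. *AXL2* instead was at 40.3, 49.6, 48.0 and 17.3 RPKM at 1, 5, 10 and 15 nM in experiment 1, and at 32.3, 31.5, 20.9 and 10.9 RPKM at 1, 5, 10 and 20 nM in experiment 2. In experiment 1 it was thus above the mock level of 36.6 RPKM up to 10 nM and less than that at 15 nM, although its difference from 0 nM at 5 nM did not pass the test (0.39, adjusted p = 0.332 with limma). *RSR1* had a similar step in experiment 1, with 71.5, 63.0 and 31.4 RPKM at 5, 10 and 15 nM. In experiment 2 *RSR1* fell from dose to dose, with 55.7, 43.7 and 27.7 RPKM at 5, 10 and 20 nM. There *AXL2* was also above its mock level of 24.3 RPKM at 0.05 to 5 nM. At 10 nM it was already below that level, so the experiments differed at this dose.

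Between 10 and 20 nM, a comparison chosen after the values were seen, 3 members fell, against 2.52% of all genes. They were *AXL2* (log2 fold change -0.996, adjusted p = 0.0242), *BUD4* (-0.88, adjusted p = 0.0119) and *RSR1* (-0.64, adjusted p = 0.0254, all with limma). The 15 nM library, present in experiment 1 only, was below the 20 nM library of the same experiment in 7 of 10 members. Each of these doses is a single library there, and the share of all genes that did so was not counted. The count is therefore not a result about the members.

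At the top of the dose range the members parted. From 20 to 500 nM *RAX2* fell further (-0.66, adjusted p = 2.2e-04), as did *BUD4* (-0.36, adjusted p = 0.0424), 2 of 10 members against 22.8% of all genes. *AXL2* (0.53, adjusted p = 0.0416) and *RAX1* (0.32, adjusted p = 0.0344, all with limma) rose, 2 of 10 against 21.1%. *RAX2* measured 44.1, 27.1, 24.9 and 26.4 RPKM at 20, 50, 100 and 500 nM in experiment 1, and 35.0, 27.5 and 22.6 RPKM at 20, 50 and 500 nM in experiment 2. At the same doses *BUD4* measured 9.76, 5.82, 6.34 and 7.09 RPKM in experiment 1, and 6.44, 4.55 and 4.97 RPKM in experiment 2. *AXL2* was lowest at 50 nM, with 11.9 and 9.29 RPKM in the 2 experiments, and measured 19.9 RPKM at 100 nM and 27.2 and 18.9 RPKM at 500 nM. Between 50 and 500 nM, again compared after the values were seen, *AXL2* alone rose past the threshold (1.04, SE 0.18, adjusted p = 0.00226 with limma), 1 of 10 members against 19.5% of all genes. *BUD2*, *BUD3*, *BUD4* and *RSR1* were also lowest at 50 nM in both experiments. Their estimates from 50 to 500 nM, 0.15 to 0.23, did not pass the test (adjusted p of 0.0584 to 0.339 with limma). The shares of members that passed are close to the backgrounds, and the differences are described gene by gene.

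Pairs of members whose products act together or in opposite ways were compared as ratios within each library, with the labels exchanged within experiments (exact permutation test, two-sided, 100 arrangements, adjusted over the 4 ratios). *BUD3* over *BUD4* rose from a log2 ratio of -0.09 ± 0.05 (SD, n = 4) to 1.09 ± 0.20 (n = 7), without overlap, and the difference within experiments was 1.25 (exact p = 0.01, the smallest possible, adjusted p = 0.02). Thus the neck partners began at nearly equal RPKM and *BUD4* ended lower. *RAX1* over *RAX2* went from -0.73 ± 0.15 (n = 4) to 0.03 ± 0.45 (n = 7), a difference of 0.83 (exact p = 0.01, adjusted p = 0.02). Its groups overlapped, at -0.93 to -0.56 for the low doses and -0.72 to 0.53 for the high doses. *BUD5* over *BUD2*, the exchange factor over the activating protein, was -2.04 ± 0.17 (n = 4) and -1.72 ± 0.17 (n = 7), a difference of 0.30 (exact p = 0.02, adjusted p = 0.0267). These groups overlapped only just, with -1.902 as the highest low-dose and -1.905 as the lowest high-dose value. This last call was lost with a pseudocount of 0.1 (adjusted p = 0.0667 in the exact test), and the difference was 0.20 without the 50 nM library of experiment 2 (adjusted p = 0.107 in the exact test). Without the mock library of experiment 1, 20 arrangements remained and no ratio could pass (adjusted p of 0.20 for *BUD3* over *BUD4* and *RAX1* over *RAX2*, and 0.267 for *BUD5* over *BUD2*, in the exact test). Without any other low-dose library 50 remained, and adjusted p reached 0.08 for the first pair of ratios and 0.133 for the last in the exact test. *BUD8* over *BUD9* differed by -0.08 between the groups (exact p = 0.68, adjusted p = 0.68). A ratio shows unequal change and does not say which gene of a pair moved.

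**Figure D3:**
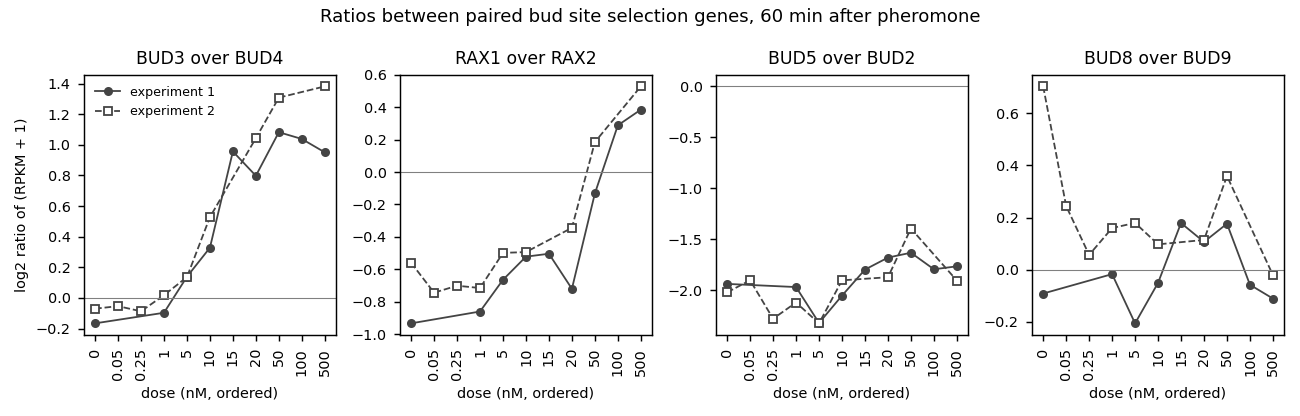
Ratios between paired bud site selection genes in each library. The vertical axes show the log2 ratio of RPKM + 1 (each panel has its own range, with a grey line at 0) against the ordered dose of *α*-pheromone in nM, with filled circles for experiment 1 and open squares for experiment 2. *BUD3* over *BUD4* rises from -0.09 on average at low doses to 1.09 at 20 nM and above, *RAX1* over *RAX2* goes from -0.73 to 0.03, and *BUD8* over *BUD9* differs by -0.08 between the groups.

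The change from low to high doses was -2.68 and -2.77 for *BUD4* in experiments 1 and 2, -1.55 and -1.46 for *BUD3*, and -0.89 and -1.14 for *AXL2*. It was -0.96 and -1.21 for *RSR1*, -0.53 and -0.50 for *BUD2* and -0.31 and -0.16 for *BUD5*. Among the bipolar genes it was -1.06 and -0.87 for *RAX2*, -0.18 and -0.07 for *RAX1*, -0.58 and -0.55 for *BUD8*, and -0.70 and -0.36 for *BUD9*. In a test of the difference between the experiments (limma interaction) 0 members passed, at an adjusted or an unadjusted p under 0.05, and 0.00% of all genes were called, with 72 of 6002 at an unadjusted p under 0.05. Experiment 1 has 1 low-dose library, so such differences are poorly resolved.

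*BUD4*, the member with the largest fall, was set against all genes over the 18 libraries by the correlation of log2(RPKM + 1) after centring within each experiment. The 5 most similar genes were *SMC4* (r = 0.996), *GAS3* (0.996), *BUD3* (0.995), *FKH1* (0.993) and *SWI5* (0.993). *SMC4* encodes a condensin subunit, *FKH1* a forkhead factor and *SWI5* a factor of the M/G1 genes. Among the members, *BUD4* and *RSR1* (r = 0.966) and *RSR1* and *BUD2* (r = 0.971) were also close, whereas *RAX1* and *RAX2* were at 0.363 and *BUD5* was at 0.224 to 0.682 with the others. The libraries share 2 cultures and the same doses, and these values are descriptions.

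Other genes of the pathway were counted in the same low-dose against high-dose comparison, at an adjusted p under 0.05 in limma. Among all genes tested, 25.9% were lower and 9.10% higher at this threshold. Of the partners of Rsr1 that carry the position to the actin machinery, *CDC24* (0.19), *CDC42* (-0.11) and *BEM1* (0.07), 0 of 3 passed the adjusted threshold in limma. Of 3 genes known to assist the axial landmark, *AXL1* rose (log2 fold change 0.68, adjusted p = 1.8e-04) and *PMT4*, which mannosylates Axl2, fell (-0.76, adjusted p = 5.2e-04, both with limma). Of the 4 tested genes that restrain Cdc42 at old division sites, *NBA1* fell (-0.87, adjusted p = 7.6e-06) and *NIS1* rose (0.69, adjusted p = 0.00206, both with limma). These 4 genes are named after their values were seen. Of 13 further genes named *BUD* from budding-pattern screens, many with general roles in RNA or ribosome metabolism, 5 fell and 1 rose. The counts of these lists were not tested against the shares of all genes. None of the genes in these lists moved by 2-fold.

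Cell cycle transcripts moved in the same comparison, in which 25.9% of all genes tested were lower and 9.10% higher at an adjusted p under 0.05 (limma). Of 8 G2/M genes 8 fell, with a summed level of 316 to 365 RPKM at low doses and 103 to 132 RPKM at high doses. Of 7 G1/S genes 6 fell and *CLN1* rose, with summed levels of 418 to 510 RPKM and 120 to 248 RPKM. Of 7 M/G1 genes 2 fell and 3 rose, with summed levels of 605 to 821 RPKM and 1014 to 1356 RPKM. Most of that rise in the sum came from the chitinase gene *CTS1*, at a mean of 299 RPKM at low and 682 RPKM at high doses, while the median log2 fold change of the list was -0.22. None of these sums overlapped between the groups. Their part in the change of the bud site selection genes was not tested.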

How the data were processed

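The members and all gene lists were chosen with earlier results of these data known. The authors mapped 50-base reads and deposited RPKM values per gene, one table per experiment, from strand-specific reads. The submitters' processing notes name Bowtie 0.12.2 and sacCer3, whereas the methods name another Bowtie release. RPKM is scaled to the reads of each library, so the change of abundant transcripts moves all others. The 0.05 nM label gives nm as unit and was read as nM. Whole reads were recovered from RPKM and gene length for over 99% of values of up to 100 reads (within 0.01 of a whole number).

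Genes whose RPKM averaged 1 or more were tested on log2(RPKM + 1) with limma 3.58.1 in R 4.3.3 (trend, experiment as a block, Benjamini-Hochberg adjustment), and all 10 members passed this filter. A fold change on this scale understates that of low genes. The main comparison took 7 libraries at 20 nM and above and 4 at 0.25 nM and under, and dose was a factor in a fit of 18 libraries. The experiments pair the libraries, each with its own mock library: their differences correlated over genes between shared doses (mean r = 0.354, 0.178 to 0.466, 21 pairs). Ratios were tested by exact permutation. The fits were tested on simulated data. The rule named all members, the genes past 2-fold of the other pathway lists (none was) and the 5 genes most similar to the member that fell most; the other genes named were chosen after their values were seen. Motifs were searched in Python 3.11.15 in the R64 genome. A further motif is not reported here. Alternatives were other pseudocounts, filters, scalings, low groups, no block, limma-voom on recovered reads and leaving out libraries. *GPS1* was not analysed here.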

Additional observations from a re-analysis of the deposited data

Results flagged for a closer look

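*BUD3* in the 20 nM library of experiment 1, at 17.7 RPKM, stood apart from the other 6 libraries at 20 nM and above, which lay between 12.8 and 14.6 RPKM. Its gap to the next library was too large a part of the range by Dixon's test for 7 values. This group mixes doses, and 1 of 20 groups checked was marked in this way, as many as chance gives.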

How the results depend on the processing

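No result past its threshold changed direction in any alternative in which it was refitted. Comparisons between single doses of pheromone, without the mock libraries, were not refitted in the alternatives. How far the calls in those comparisons depend on the processing or on single libraries was not tested. The count of all genes called lower, 264, was 152 with a pseudocount of 5. In experiment 1 alone, 51 genes were called higher and 50 lower (137 and 264 with both), and 2 members passed the test, both by 2-fold, with the lone low-dose library assumed to vary like the rest. The member count at 5 nM went from 1 to 0 with a pseudocount of 0.1, with centring on the median and without single libraries (0 to 1). Without the replicate block the counts were 0 at 5 nM, 3 instead of 5 at 10 nM and 5 instead of 8 at 20 nM. Without single libraries the count at 10 nM was 2 to 4. The log2 ratio of *BUD5* over *BUD2* was 0.28 with a pseudocount of 0.1. With single libraries left out, the differences in log2 ratio ranged from 1.20 to 1.31 for *BUD3* over *BUD4*, 0.71 to 0.97 for *RAX1* over *RAX2* and 0.20 to 0.35 for *BUD5* over *BUD2*, and p-values rose where 20 to 50 arrangements remained. Centring or quantile scaling took the median of all genes from -0.10 to -0.01 and left 8 members past the threshold, 3 of them by 2-fold, in the main comparison; the calls of *BUD2* and *BUD9* that either scaling ended at single doses are given with those doses. With a mean RPKM of at least 5 *BUD5* was not tested. At 5 RPKM *BUD5* rests on 43 to 134 recovered reads a library, and 3 reads for a transcript of 1 kb are 0.180 to 0.617 RPKM. Counting limits cover counting error only.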
